A study of Mus musculus with 6 samples.

Results

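NRF2 targets and metallothioneins are described here through 10 genes of SL4 cells, a mouse CRC (colorectal cancer) cell line. The genes were taken by symbol from the 53700 genes of the expression table, and each symbol matched 1 Ensembl identifier. They are Nfe2l2, which encodes NRF2, its inhibitor Keap1, the NRF2 target genes Gclc, Gclm, Txnrd1, Srxn1, Nqo1 and Hmox1, and the metallothioneins Mt1 and Mt2. Poly-A RNA of SL4 cells was sequenced to ask which transcripts changed with SEMA6A, a membrane-bound semaphorin. The pLV-SEMA6A group (3 libraries) was SL4 cells that overexpressed SEMA6A from a lentivirus, and the pLV-Control group (3 libraries) was SL4 cells without that overexpression, for which the labels name no empty vector. The SL4 line carries luciferase in both groups, and no other treatment is named. No independently made pLV-SEMA6A lines are described, so an effect of SEMA6A and a difference between the cell lines cannot be told apart. Nothing says that the libraries of a group came from separate cultures, so the p-values measure only the spread between these libraries.

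NRF2 is the transcription factor that switches on defence against oxidants and reactive chemicals. In resting cells KEAP1 holds NRF2 for ubiquitination by a CUL3 ligase and it is quickly degraded. Oxidants and electrophiles modify KEAP1, after which NRF2 builds up, pairs with a small MAF protein and binds antioxidant response elements (AREs). NRF2 activity is therefore set largely at the protein level, which RNA does not measure. Metallothioneins are small cysteine-rich proteins that bind zinc and copper. Their genes are switched on by the zinc sensor MTF-1 at metal response elements (MREs), and by other signals such as glucocorticoids. In the intestine both systems are known for protection against oxidants and excess metal.

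The sequences before the starts of Mt1, Mt2, Srxn1 and Slc30a1 are shown because these genes were among those that differed most or hold the motifs of both systems. Slc30a1 encodes the zinc exporter ZnT1 and is a known MTF-1 target. The sequences are from RefSeq on GRCm38.p6, each of 250 bases on the plus strand up to the base before the RefSeq start. In Mt1 (chr8:94178839-94179088) the capitals mark a match to the MRE core.
Mt1: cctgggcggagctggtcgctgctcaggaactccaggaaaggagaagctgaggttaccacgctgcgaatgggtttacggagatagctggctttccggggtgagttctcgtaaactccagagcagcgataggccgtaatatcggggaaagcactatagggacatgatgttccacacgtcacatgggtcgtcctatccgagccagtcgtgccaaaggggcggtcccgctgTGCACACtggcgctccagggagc
In Mt2 (chr8:94172368-94172617) the capitals mark 3 MRE core matches and, as the third run, 1 ARE core match that also holds a core match for AP-1, the JUN and FOS factor whose site resembles an ARE.
Mt2: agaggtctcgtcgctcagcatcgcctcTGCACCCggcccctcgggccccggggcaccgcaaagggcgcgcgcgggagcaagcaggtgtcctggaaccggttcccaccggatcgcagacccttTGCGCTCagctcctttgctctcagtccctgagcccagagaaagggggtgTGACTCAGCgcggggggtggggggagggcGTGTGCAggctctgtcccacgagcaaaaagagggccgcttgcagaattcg
In Srxn1 (chr2:152105274-152105523) they mark 2 matches to the AP-1 core, and a match to the MRE core at base −19 is left in lower case. With the gc after it, the later AP-1 match differs from the ARE core searched here only by a G in place of the C after TGA. Forms with that G were not searched, so it was not counted as an ARE.
Srxn1: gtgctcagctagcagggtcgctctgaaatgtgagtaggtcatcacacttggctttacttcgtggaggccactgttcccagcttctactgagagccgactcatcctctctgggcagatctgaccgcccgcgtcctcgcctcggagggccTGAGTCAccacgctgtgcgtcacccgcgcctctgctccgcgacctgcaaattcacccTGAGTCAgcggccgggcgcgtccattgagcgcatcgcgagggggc
In Slc30a1 (chr1:191906531-191906780) they mark 1 MRE core match, and a match to the ARE core at base −82 is left in lower case.
Slc30a1: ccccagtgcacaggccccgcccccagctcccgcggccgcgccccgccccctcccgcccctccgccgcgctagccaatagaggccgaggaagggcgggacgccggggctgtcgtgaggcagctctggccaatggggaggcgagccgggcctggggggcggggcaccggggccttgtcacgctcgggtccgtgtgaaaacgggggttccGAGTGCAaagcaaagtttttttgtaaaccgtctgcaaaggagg
The motifs were searched on both strands as TGACNNNGC for the ARE core, TGCACNC or TGCGCNC for the MRE core, and TGANTCA for the AP-1 core. The search window ran from 250 bases before to 50 bases after the start.

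The MRE core was found 4 times in the Mt2 window and 3 times in the Mt1 window. Of the 32851 windows of the same length in the RefSeq table, 25.7% held at least 1 MRE core and 1.97% held 3 or more. The Gclm window also held 3 MRE cores. Counted to the first base of a match, with base 1 at the start and no base 0, Mt1 had its matches at −23, 3 and 21, and Mt2 at −223, −128, −50 and 5. An ARE core, present in 12.4% of all windows, was found once each in Nfe2l2, Gclm, Srxn1 and Mt2 and in 1 of the 3 windows of Txnrd1. The ARE core of Srxn1, in the form searched, began at base 29. An AP-1 core, present in 7.81% of windows, was found 2 times in Srxn1 and 1 time in Mt2, where it lies within the ARE core match at base −79. Keap1 and Nqo1 held none of the motifs in the forms searched, and Hmox1 and Gclc have no entry in the promoter table. ARE forms with a G in place of the C after TGA were not searched in any gene. These matches are letters in a short window, and no binding was measured. GENCODE also annotates Mt1 transcripts that start 122 and 152 bases after the RefSeq start, and Mt2 transcripts that start 46 and 242 bases after it. For neither gene does the window reach all the bases just before the later of these starts.

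**Figure D1:**
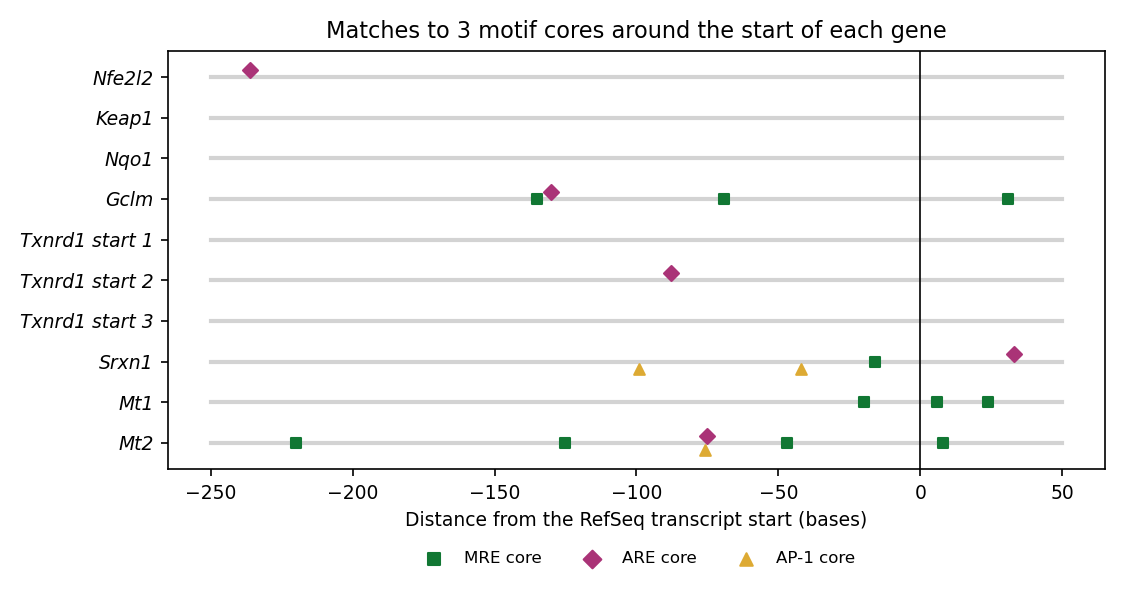
Positions of ARE, MRE and AP-1 core matches from 250 bases before to 50 bases after the RefSeq start (x axis, bases) of the 8 genes with an entry, with 1 line for each start. Mt2 holds 4 MRE core matches and Mt1 holds 3, while Keap1 and Nqo1 hold no match to any of the motifs in the forms searched.

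Expression is given as TPM, a measure of transcript abundance that corrects for transcript length and sets each library to the same sum. The depth is lost in that step, so the reads behind a value are unknown. The listed genes themselves held 984475 to 986444 TPM in pLV-Control and 977400 to 977972 TPM in pLV-SEMA6A, so their sums differed slightly between the groups. Fold changes are differences of log2(TPM + 1), pLV-SEMA6A minus pLV-Control, which understate the change of low genes. They were tested with limma over the 12510 genes whose mean level reached 1 TPM. A gene is called a DEG at a Benjamini-Hochberg adjusted p under 0.05 with an absolute log2 fold change over 0.5, and only DEGs are said to have risen or fallen. A two-sided exact permutation test on 3 and 3 libraries has a smallest p of 0.1, which it gave for each of the 10 genes but Nqo1 (0.2).

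Sema6a was listed at 0 without SEMA6A overexpression and at 98.7, 118 and 112 TPM with it, the direction of the labels. Listed genes above 0 numbered 19340 to 19463 in pLV-Control and 18798 to 18887 in pLV-SEMA6A, and mitochondrial genes took 5.81 to 6.40% and 6.19 to 6.34% of TPM. The epithelial markers of a colorectal line were absent or nearly so. All 6 of Krt8, Krt18, Krt19, Epcam, Cdh1 and Cldn7 were at 0.39 TPM or lower, and Cdx1, Cdx2 and Car1 were at 0 in all 6 libraries. The 6 colon epithelial markers summed to 1.95 to 2.51 TPM in the control libraries and to 0.19 to 1.18 TPM with SEMA6A, and Lgals4 was the only one of the 6 to reach 1 TPM in any library. Summed markers were 5.06 to 6.38 and 6.96 to 7.99 TPM for fibroblasts (5 genes, none at 0 throughout), and 1.00 to 2.53 and 0.87 to 1.70 TPM for leukocytes (5 genes, with Adgre1 and Cd3e at 0). Of the fibroblast markers, the collagen gene Col1a1 rose (log2 fold change 1.02, adjusted p = 0.000681 by limma) and the receptor gene Pdgfra fell (−0.63, adjusted p = 0.0219), so that the sum hides changes in both directions. Those of endothelial cells reached at most 0.22 TPM (4 genes, with Cdh5 at 0). Their part in the results below was not tested. In bulk RNA, fewer cells of a type and less RNA per cell cannot be told apart.

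Of the 10 genes, Mt1 and Mt2 rose and Hmox1 and Srxn1 fell in the pLV-SEMA6A group. Thus 2 were DEGs in each direction, where 15.9% of all genes tested were DEGs, 5.12% higher and 10.8% lower. By adjusted p alone 4 were higher and 4 lower, beside 47.6% of all genes (19.5% higher and 28.2% lower). The libraries of the groups did not overlap for 9 of the 10, beside 58.5% of all genes tested. The median log2 fold change was 0.02 over the 10 genes and −0.06 over all genes tested. The transcripts of the regulators Nfe2l2 and Keap1, of Gclc and Gclm, and of Nqo1 and Txnrd1 all moved by less than the minimum for a DEG. Txnrd1 moved furthest of these, at −0.37.

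**Figure D2:**
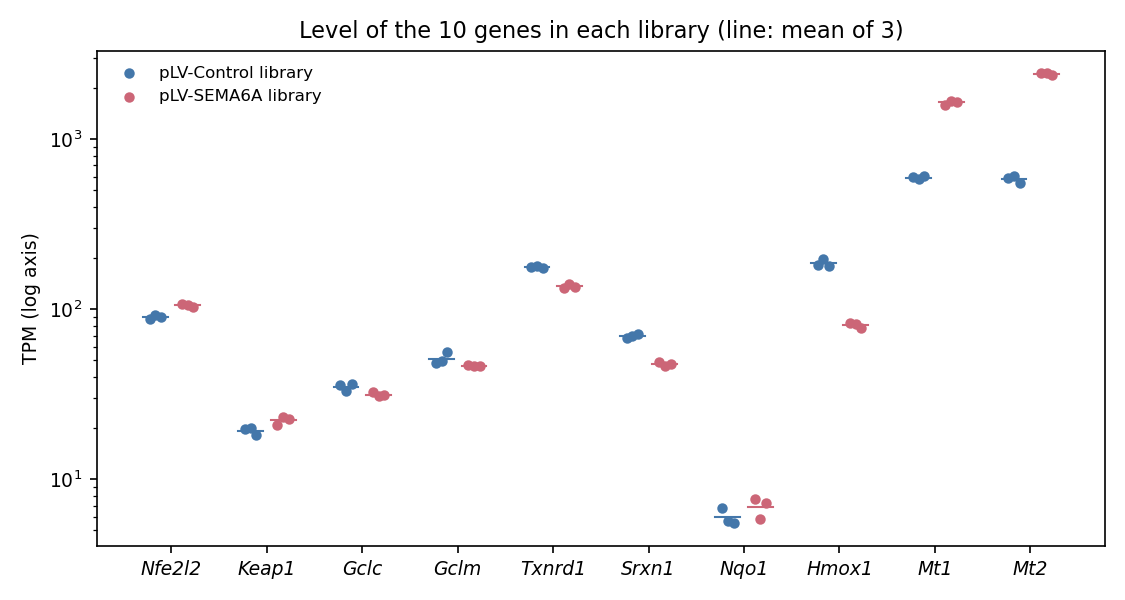
TPM of the 10 genes (y axis, log scale) in each of the 3 pLV-Control (blue) and 3 pLV-SEMA6A (red) libraries, with a line at each mean. Mt1 and Mt2 lie above all their control values and Hmox1 below, while Nqo1 overlaps.

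Gene positions are from GENCODE M21 on GRCm38. Nfe2l2, on chromosome 2 from 75675513 to 75704641, was at 87.5, 92.3 and 90.3 TPM without SEMA6A overexpression and at 107, 106 and 103 TPM with it. Every pLV-SEMA6A library was above every control, by a small margin. The log2 fold change was 0.22 (SE 0.03, adjusted p = 0.00169 by limma), under the minimum for a DEG. Keap1 (chromosome 9, 21229730 to 21239361) was at 19.7, 19.9 and 18.1 TPM without SEMA6A overexpression and at 20.9, 23.4 and 22.6 TPM with it. The inhibitor was thus also higher in every pLV-SEMA6A library, with a log2 fold change of 0.20 (SE 0.06, adjusted p = 0.037 by limma). For Keap1 the adjusted p was under 0.05 in 5 of 12 refits, and in 1 of the 6 that left out a library.

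Gclc and Gclm encode the catalytic and the modifier subunit of glutamate-cysteine ligase, the enzyme of the first step of glutathione synthesis. Gclc (chromosome 9, 77754535 to 77794485) was at 35.7, 33.2 and 36.1 TPM without SEMA6A overexpression and at 32.6, 30.7 and 31.1 TPM with it. Gclm (chromosome 3, 122245557 to 122270732) was at 48.5, 49.3 and 56.0 TPM without SEMA6A overexpression and at 47.0, 46.6 and 46.1 TPM with it. Both subunits were lower in every pLV-SEMA6A library, by a narrow margin. The log2 fold change of Gclc was −0.15 (SE 0.05, adjusted p = 0.0417 by limma), with the p under 0.05 in 3 of 12 refits. That of Gclm was −0.13 (SE 0.06, adjusted p = 0.107). Of the 31-base stretches of Gclm transcripts, 5.61% also occur in other genes, mainly Ppia, and the share that this adds to its value is unknown. The ratio of Gclc to Gclm was 0.686 ± 0.0471 in pLV-Control and 0.676 ± 0.0179 in pLV-SEMA6A (SD, n = 3 each, exact permutation p = 0.9, two-sided), a difference smaller than the spread of the libraries.

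Txnrd1 and Srxn1 serve the thiol repair enzymes. Txnrd1 encodes cytosolic thioredoxin reductase and Srxn1 encodes sulfiredoxin, which restores overoxidized peroxiredoxins. Txnrd1 (chromosome 10, 82833951 to 82897712) was at 176, 179 and 174 TPM without SEMA6A overexpression and at 134, 139.9 and 136 TPM with it. All pLV-SEMA6A values were well below the controls, with a log2 fold change of −0.37 (SE 0.03, adjusted p = 0.000112 by limma) that did not reach the minimum for a DEG. Srxn1 (chromosome 2, 152105516 to 152111376) was at 68.1, 69.1 and 71.9 TPM without SEMA6A overexpression and at 48.9, 46.3 and 47.4 TPM with it. It was lower in every pLV-SEMA6A library and fell by a margin just past the minimum, at −0.54 (SE 0.04, adjusted p = 8.41e-05 by limma), or 1.47-fold by the means. With libraries centred on their medians the value was −0.45, which is not a DEG.

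Nqo1 encodes a quinone reductase that is widely used as a readout of NRF2. It lies on chromosome 8 from 107388225 to 107403206 and was low in these cells, at 6.76, 5.66 and 5.52 TPM without SEMA6A overexpression and at 7.63, 5.84 and 7.24 TPM with it. The groups overlapped, and the log2 fold change of 0.18 (SE 0.12) had an adjusted p of 0.269 by limma. Among the 10 genes it had the lowest level and the largest error.

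Hmox1 encodes haem oxygenase 1, which opens the haem ring to biliverdin and releases iron. On chromosome 8 from 75093621 to 75100589, it was at 182, 198 and 179 TPM without SEMA6A overexpression and at 82.7, 82.0 and 77.0 TPM with it. All pLV-SEMA6A libraries were thus far below the lowest control. It averaged 186 ± 10.3 TPM without and 80.6 ± 3.11 TPM with SEMA6A (SD, n = 3 each), so that pLV-Control was 2.31-fold higher, and the log2 fold change was −1.20 (SE 0.05, adjusted p = 1.11e-05 by limma). Leaving out 1 library at a time gave −1.23 to −1.15.

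The metallothionein genes were among the most abundant transcripts and rose furthest of the 10. Mt1, on chromosome 8 from 94179082 to 94180327, was at 597, 581 and 604 TPM without SEMA6A overexpression and at 1596, 1683 and 1651 TPM with it. Mt2, from 94172664 to 94173568 on the same strand, was at 589.7, 604 and 552 TPM without SEMA6A overexpression and at 2436, 2430.1 and 2386 TPM with it. The groups were far apart for both genes, beside which the spread within a group was small. Mt1 rose from 594 ± 11.9 to 1643 ± 44.5 TPM (SD, n = 3), 2.77-fold, with a log2 fold change of 1.47 (SE 0.03, adjusted p = 4.93e-07 by limma). Mt2 rose from 582 ± 27.1 to 2418 ± 27.1 TPM, 4.16-fold, with a log2 fold change of 2.05 (SE 0.03, adjusted p = 4.13e-07). Leaving out 1 library at a time gave 1.45 to 1.49 for Mt1 and 2.02 to 2.08 for Mt2. By mean level Mt1 moved from rank 227 to 89 of all listed genes, and Mt2 from 233 to 51.

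The metallothioneins did not rise to the same extent. The ratio of Mt2 to Mt1 was 0.987, 1.04 and 0.913 in pLV-Control and 1.53, 1.44 and 1.45 in pLV-SEMA6A. The values of the groups did not overlap, and the means of 0.980 ± 0.0637 and 1.47 ± 0.0476 (SD, n = 3) gave p = 0.1 by the exact permutation test, the smallest it allows. Their sum went from 1176 ± 17.5 to 4061 ± 45.6 TPM (SD, n = 3), a 3.45-fold difference, from 0.117 to 0.121% of listed TPM to 0.413 to 0.421%. No 31-base stretch of Mt1 transcripts occurs in another gene, and 0.524% of those of Mt2 do, so Mt1 and Mt2 can be told apart by sequence. Gm45774 is annotated antisense to Mt2 and was at 0.790 ± 0.316 and 1.59 ± 0.375 TPM. Whether the counting used strand is not given in the sources used here, so reads of Gm45774 and Mt2 may not be told apart. The other metallothioneins were nearly silent, with Mt3 between 0 and 0.21 TPM and Mt4 listed at 0.

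**Figure D3:**
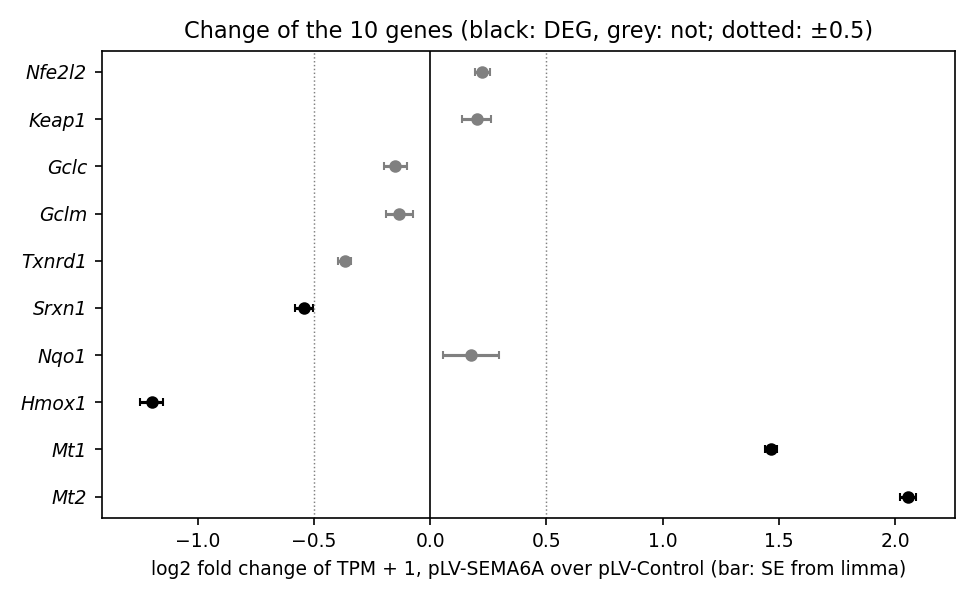
Log2 fold change of TPM + 1 (x axis, pLV-SEMA6A minus pLV-Control) of the 10 genes, with bars for the SE from limma, black for DEGs and grey for the rest. The changes run from −1.20 for Hmox1 to 2.05 for Mt2, and 6 of the 10 lie between the dotted lines at −0.5 and 0.5.

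Among the 10 genes the order of levels itself changed at the upper end. In pLV-Control it ran Mt1, Mt2, Hmox1, Txnrd1, Nfe2l2, Srxn1, Gclm, Gclc, Keap1, Nqo1. Neighbours whose libraries overlapped were Mt1 with Mt2 and Hmox1 with Txnrd1. In pLV-SEMA6A it ran Mt2, Mt1, Txnrd1, Nfe2l2, Hmox1, Srxn1, Gclm, Gclc, Keap1, Nqo1, where only Srxn1 and Gclm overlapped. Hmox1 thus went from the third to the fifth place.

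Mt2 and Mt1 start 6.42 kb apart in the order Mt2, Mt1, and 5513 bases lie between them. Of the 14 other genes with any part within 150 kb of the stretch from Mt2 to Mt1, 5 passed the filter on low values. None of the 5 was a DEG by limma, beside 15.9% of all genes tested. An unadjusted p under 0.05 was found for 3 of the 5, beside 54.9% of all genes tested (22.3% higher and 32.6% lower), a share near the background. Their log2 fold changes ran from −0.47 to 0.54. The highest was Gm45774 (SE 0.21, adjusted p = 0.0743), and the lowest Bbs2, a subunit of the BBSome of cilia (SE 0.12, adjusted p = 0.0201). At an adjusted p under 0.05 alone, Bbs2 was the only one to pass. These neighbours were named after their values were seen.

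**Figure D4:**
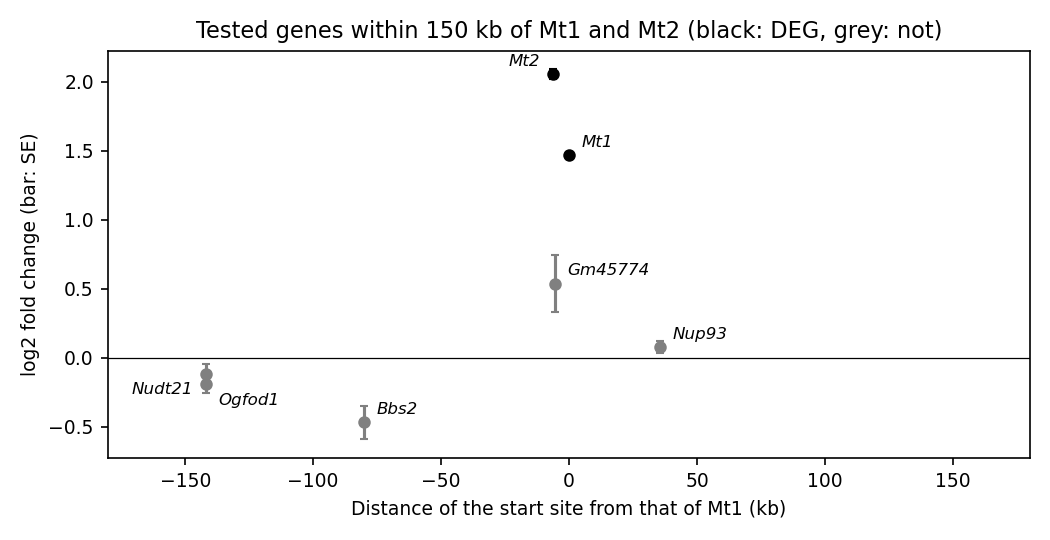
Log2 fold change of TPM + 1 (y axis, with bars for the SE) against the distance of the start from that of Mt1 (x axis, kb) for the 7 tested genes of the region. Mt1 at 1.47 and Mt2 at 2.05 (black) lie above the 5 neighbours, which run from −0.47 to 0.54 (grey).

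The genes whose profile over the 6 libraries was nearest to that of Mt2, among 8174 other genes that averaged 10 TPM or more, were S100a4, Gm43305 and Snx6. The measure was the root mean square difference of log2(TPM + 1) after each gene's own mean was subtracted, and it was 0.03 for S100a4, 0.13 for Gm43305 and 0.13 for Snx6. S100a4, which encodes a calcium-binding protein linked to cell motility, averaged 790.3 ± 21.4 TPM in the control group and 3394 ± 87.9 TPM with SEMA6A (SD, n = 3 each). Gm43305, known only by its gene model name, was at 83.2 to 94.6 TPM and at 326 to 410.3 TPM in the same order. Snx6, a sorting nexin of endosomes, was at 1011 to 1075 TPM in the control libraries and at 3489 to 4019 TPM with SEMA6A.

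Other genes of the pathway were taken from 8 lists with 130 genes, of which 112 passed the filter on low values. Of these, 10 rose and 12 fell, so that 19.6% were DEGs beside 15.9% of all genes tested, a share near the background. With libraries centred on their medians 14 rose and 10 fell. The medians ran from −0.21 in the lists of NRF2 partners and of glutathione genes to 0.15 for the detoxification enzymes. The share of DEGs was highest in the list of haem and iron genes, at 6 of 13. Counts of DEGs in each list below are to be read beside that 15.9%, or 5.12% higher and 10.8% lower.

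**Figure D5:**
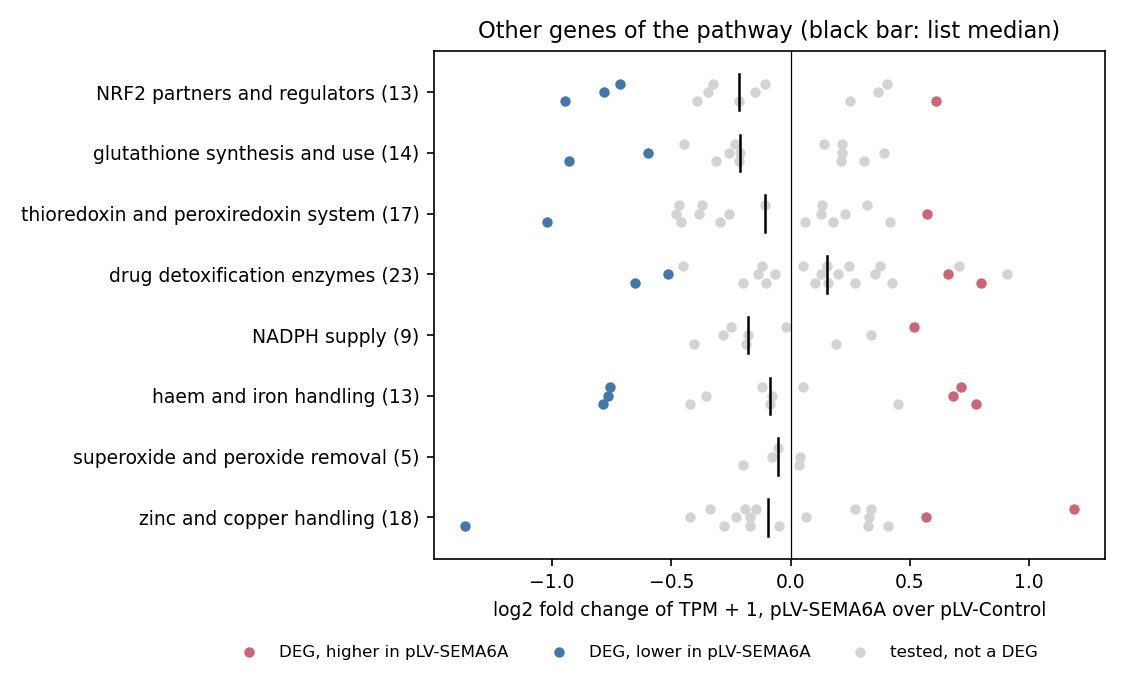
Log2 fold change of TPM + 1 (x axis) of the tested genes in each of the 8 lists (number in brackets), with DEGs in red (higher) and blue (lower), other genes in grey and the list median as a black bar. Medians lie between −0.21 and 0.15, and the widest range, from −1.37 to 1.19, is that of zinc and copper handling.

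Among the partners and regulators of NRF2, 1 gene rose and 3 fell of 13 tested, with a median of −0.21. The share of DEGs was 30.8%, beside 15.9% of all genes tested. Sqstm1 encodes p62, an autophagy receptor that binds KEAP1. It was at 1610.1, 1633 and 1613 TPM without SEMA6A overexpression and at 987, 991 and 983 TPM with it, and fell by 0.71 on the log2 scale (SE 0.02, adjusted p = 8.18e-07 by limma). The p62 transcript was thus lower in every pLV-SEMA6A library, with very little spread. Maff, a small MAF partner, fell from 62.5 ± 1.73 to 36.0 ± 2.59 TPM (log2 fold change −0.78), and Trim21, a ubiquitin ligase, from 12.2 ± 1.31 to 5.89 ± 0.896 TPM (−0.95). Rbx1, the RING subunit of the CUL3 ligase, rose from 80.3 ± 5.31 to 123 ± 8.85 TPM (0.61). Other genes, mainly Rbx1-ps, hold 5.21% of the 31-base stretches of Rbx1. Cul3 itself had 0.40 (adjusted p = 0.0115, and 0.51 without pLV-Control replicate 3, past the minimum for a DEG), Gsk3b 0.25, Mafk −0.35 and Nfe2l1, the NRF2 relative NRF1, −0.32, none of them DEGs with all libraries.

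Of 14 glutathione genes tested, none rose and 2 fell by limma, while 5 were higher and 7 lower at an unadjusted p under 0.05, where all genes tested gave 22.3% and 32.6%. Abcc1, which exports glutathione conjugates, fell from 79.9 ± 1.71 to 41.6 ± 1.18 TPM (log2 fold change −0.93, SE 0.04, adjusted p = 9.06e-06). Ggct, an enzyme of glutathione breakdown, fell from 19.3 ± 1.64 to 12.4 ± 1.29 TPM (−0.60), but was not a DEG after quantile normalization. Genes that were not DEGs included the glutathione peroxidases Gpx1 (0.22) and Gpx4 (0.21), the cystine transporter subunit Slc3a2 (0.22) and Chac1 (−0.26), which degrades glutathione. Slc7a11, the other subunit of that transporter, was lower in every pLV-SEMA6A library (−0.31, adjusted p = 0.00211 by limma), under the minimum for a DEG.

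Of 17 thioredoxin and peroxiredoxin genes, 1 rose and 1 fell (11.8%, beside 15.9% of all genes tested). Txnip, which binds and inhibits thioredoxin, was at 121, 125 and 134 TPM without SEMA6A overexpression and at 62.1, 63.4 and 60.3 TPM with it. It fell by 1.02 on the log2 scale (SE 0.05, adjusted p = 1.54e-05 by limma), so the groups were far apart. Prdx1, a peroxide-reducing enzyme and known NRF2 target, rose from 313 ± 4.84 to 466 ± 6.20 TPM (0.57, SE 0.02). Of its 31-base stretches 15.2% occur in other genes, mainly pseudogenes. The values for genes that were not DEGs were 0.23 for Txn1, −0.29 for Txn2, −0.26 for Txnl1 and −0.46 for Prdx6, which was a DEG after quantile normalization (−0.53).

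Of 23 detoxification enzymes, 2 rose and 2 fell (17.4%, beside 15.9% of all genes tested), with a median of 0.15. Gsta4, which conjugates products of lipid peroxidation, rose from 14.7 ± 1.51 to 26.2 ± 1.27 TPM (0.80), and Ephx1, an epoxide hydrolase, from 10.9 ± 1.44 to 17.7 ± 0.734 TPM (0.66). Gstm5 fell from 33.3 ± 1.34 to 23.0 ± 1.39 TPM (−0.51), with libraries that did not overlap, just past the minimum, and was not a DEG with centred libraries (−0.42). Ugt1a6a, a glucuronosyltransferase, was at 2.69 ± 0.401 and 1.38 ± 0.542 TPM (−0.65, adjusted p = 0.0395), but 53.0% of its stretches are shared with other Ugt1a genes and the p was under 0.05 in 4 of 12 refits. The most abundant of the rest were not DEGs, with −0.10 for Gstp1, −0.12 for Gsto1, −0.20 for Gstm1 and 0.27 for Akr1b3. Of the 9 NADPH genes 1 rose and none fell by limma, with 3 higher and 5 lower at an unadjusted p under 0.05, to be read beside the same 22.3% and 32.6%. Nadk, the kinase that makes NADP, rose from 103 ± 2.99 to 147 ± 1.56 TPM (0.52), and was not a DEG after quantile normalization or without pLV-Control replicate 1. The values in the pentose phosphate pathway were −0.18 for Pgls, 0.19 for Pgd, −0.28 for Taldo1 and −0.19 for Tkt. G6pdx, of the same pathway, was higher in every pLV-SEMA6A library (0.34, adjusted p = 0.000509 by limma), under the minimum for a DEG.

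Haem and iron genes moved in both directions, with 3 up and 3 down of 13 tested and a median of −0.09. The share of DEGs was 46%, beside 15.9% of all genes tested. The gene of the first enzyme of haem synthesis, Alas1, fell from 46.1 ± 7.29 to 26.6 ± 2.47 TPM (−0.76), and the haem transporter Slc48a1 from 99.6 ± 2.50 to 58.5 ± 1.65 TPM (−0.76). Slc11a2, which encodes the iron importer DMT1, fell from 48.6 ± 5.46 to 27.7 ± 2.19 TPM (−0.78). Blvrb, a biliverdin reductase, rose from 39.6 ± 3.09 to 68.6 ± 1.23 TPM (0.78). The transferrin receptor gene Tfrc was at 14.8, 14.7 and 15.6 TPM without SEMA6A overexpression and at 27.1, 24.3 and 24.6 TPM with it and rose by 0.72 (SE 0.06, adjusted p = 0.000161 by limma). Aco1, which encodes the iron regulatory protein IRP1, rose from 15.6 ± 0.926 to 25.7 ± 0.820 TPM (0.68). The ferritin genes were among the most abundant, with Ftl1 at 5042 ± 84.7 and 3764 ± 32.5 TPM and Fth1 at 2465 ± 37.4 and 1927 ± 33.0 TPM. Their log2 fold changes of −0.42 (adjusted p = 1.06e-05) and −0.36 (adjusted p = 3.82e-05) were below the minimum for a DEG. Hmox2, the constitutive haem oxygenase, was at −0.08 and Fech at −0.09, and both signs turned when the libraries were centred.

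None of the 5 superoxide and peroxide genes was a DEG by limma, and 0 had an unadjusted p under 0.05, which 54.9% of all genes tested had. The values were −0.05 for Sod1, 0.04 for Sod2, −0.08 for Cat and 0.04 for Ccs, and each turned sign under some setting.

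Of 18 zinc and copper genes 2 rose and 1 fell, with a median of −0.10. The share of DEGs was 16.7%, near the 15.9% of all genes tested. The plasma membrane zinc exporter Slc30a1 was at 1.71, 1.5 and 2.14 TPM without SEMA6A overexpression and at 4.96, 5.44 and 5.57 TPM with it. All pLV-SEMA6A libraries were above the controls at a low level, with a log2 fold change of 1.19 (SE 0.12, adjusted p = 0.000432 by limma). Its window held 2 MRE cores and 1 ARE core. Of all windows, 25.7% held at least 1 MRE core, 1.97% held 3 or more, and 12.4% held an ARE core. The share with 2 or more MRE cores was not counted. Slc39a10, which encodes the zinc importer ZIP10, was at 20.9, 20.5 and 21.9 TPM without SEMA6A overexpression and at 7.68, 7.65 and 7.37 TPM with it. It fell by 1.37 (SE 0.05, adjusted p = 9.06e-06 by limma), with almost no spread within a group, and its windows held none of the motifs. In the other lists both kinds of window occurred in each direction. A window was available for 17 of the 22 DEGs of all lists. MRE cores were found for Maff, Txnip, Gstm5 and Alas1, which fell, and for Rbx1, Nadk, Tfrc and Aco1, which rose. ARE cores were found for Maff, Ggct and Gstm5, which fell, and for Prdx1, which rose. Where a gene had several windows, a match in any of them was taken. None of the motifs was found for Sqstm1 and Trim21, which fell, or for Ephx1 and Blvrb, which rose. A relation of motifs to the changes was not tested. Slc39a14, the importer ZIP14, rose from 43.2 ± 1.91 to 64.4 ± 2.0 TPM (0.57). Not DEGs were the transporter genes Slc30a4 (0.41), Slc39a6 (0.33) and Slc39a7 (−0.05) and the copper chaperone gene Atox1 (0.33). With centred libraries Slc30a4 was a DEG (0.50) and Slc39a7 changed sign.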

How the data were processed

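The authors deposited TPM for each library of 3 pLV-Control and 3 pLV-SEMA6A libraries, after poly-A selection, and the group means, which were not used. The labels name HISAT, Bowtie2 and RSEM with mm39, without roles or versions. Replicate numbers come from the labels. The 12510 genes that averaged 1 TPM or more were fitted in limma 3.58.1 (R 4.3.3) as log2(TPM + 1) on the group alone, with a mean-variance trend and Benjamini-Hochberg adjustment. Errors beside TPM are SDs (n = 3). TPM keeps no depth, so no counting error could be computed. The spread between libraries is given as SDs and limma SEs, without intervals.

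Positions are from GENCODE M21 and promoters from RefSeq, both on GRCm38. They were matched by identifier (52093 of 53700, 97%) or symbol (8 of 10 members), and no coordinate was converted. Shared sequence was counted as 31-base stretches of GENCODE transcripts on the same strand. Overlap with antisense genes was looked at for Mt1 and Mt2 only.

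Named genes are the 10 members, each DEG of the lists, up to 4 further genes of each list with the highest mean TPM, Sema6a, and the 3 nearest profiles. G6pdx and Slc7a11 were named as well, after their values were seen. The members and lists were chosen with earlier results of these data known. Libraries with the same replicate number had deviations from the group mean that correlated at −0.06 on average (−0.08 to −0.02), so the numbers were not treated as pairs. The steps were tested on simulated data. Alternatives were a pseudocount of 0.1, no filter, the replicate block, libraries centred on their medians, quantile normalization, limma without the trend, each library left out in turn, and other minimum fold changes. The results of 2 genes are not reported here.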

Additional observations from a re-analysis of the deposited data

How the results depend on the processing

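Mt1, Mt2 and Hmox1 were DEGs under all 14 alternatives, with log2 fold changes of 1.45 to 1.56, 2.02 to 2.15 and −1.24 to −1.10. The count of members that were DEGs depended on the minimum fold change. It went from 2 higher and 2 lower to 4 and 4 with no minimum, and to 2 and 1 with a minimum of 1. With libraries centred on their medians it was 2 higher and 1 lower, since Srxn1 was no longer a DEG. Over the pathway lists, 10 higher and 12 lower became 31 and 41 with no minimum, and 1 and 2 with a minimum of 1. They were 14 and 10 with centred libraries and 11 and 11 with quantile normalization. Leaving out 1 library at a time gave 9 to 12 higher and 10 to 13 lower, and 2 and 2 among the members. With the replicate number as a block the counts stayed at 2 and 2 for the members and 10 and 12 for the lists, and the adjusted p of Keap1 was 0.0668 and that of Gclc 0.0595, both above 0.05. The libraries share only a number, so this block is not a pairing.

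Centring the libraries moved the median of all genes tested by 0.09 on the log2 scale and turned their DEGs from 640 higher and 1347 lower into 1002 and 961. It also turned the sign of Hmox2 (0.0139), Fech (0.0063), Sod1 (0.0418), Cat (0.0158) and Slc39a7 (0.0449). Quantile normalization gave Sod2 −0.0224. Leaving out 1 library at a time gave −0.0189 to 0.0846 for Sod2 and −0.0989 to 0.0056 for Slc39a7, both with another sign without pLV-SEMA6A replicate 3. For Ccs it gave −0.0118, without pLV-Control replicate 2, to 0.08. Under the settings that turned their signs, none of these genes had an adjusted p under 0.05. Sod1, with its sign kept, had 0.0107 after quantile normalization (log2 fold change −0.10). Among the lists, Gstm5 was no longer a DEG with centred libraries, with quantile normalization or without pLV-Control replicate 3 or pLV-SEMA6A replicate 2, and Ggct and Nadk were not with quantile normalization, nor Nadk without pLV-Control replicate 1. Ugt1a6a lost its call under 8 alternatives other than the larger minimum fold change. Calls were gained for Cul3 without pLV-Control replicate 3 (0.51), for Prdx6 with quantile normalization (−0.53) and for Slc30a4 with centred libraries (0.50). The cause of these shifts was not tested. With no depth in TPM, low genes such as Nqo1 and Slc30a1 cannot be given a counting error.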

Other observations

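A pair of detoxification genes varied strongly between libraries of 1 group, and they were picked out after their values were seen. Gstp2, a close relative of Gstp1, was at 0.90, 21.8 and 17.6 TPM without SEMA6A overexpression and at 25.7, 19.9 and 8.52 TPM with it. Gstp1 was at 590, 566 and 570 TPM and at 526, 520 and 560 TPM in the same order. In each group Gstp1 was thus highest in the library where Gstp2 was lowest. Sequence shared by Gstp1 and Gstp2 was not counted, so their reads may not be told apart, and a split of reads between them was not tested. The lowest value of Gstp2 was in pLV-Control replicate 1, and its groups overlapped (log2 fold change 0.91, SE 0.97, adjusted p = 0.473 by limma). Mgst1, a microsomal glutathione transferase, was at 0.88, 5.15 and 2.73 TPM and at 4.61, 3.41 and 6.59 TPM in the same order, and its lowest value was in the same library. Its log2 fold change was 0.71 (SE 0.44, adjusted p = 0.227).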
